A study of Homo sapiens with 6 samples.

Results

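H3K27me3, the trimethylation of histone H3 at lysine 27, was compared between D283 tumorspheres with and without OTX2, library against library, over all genes and regions. The comparison uses 2 of the 6 ChIP-seq samples of the series, chosen as the H3K27me3 libraries that the file names and file headers call OTX2high and OTX2low. D283 is an established cell line of Group 3 medulloblastoma, a cerebellar tumor of childhood. After siRNA treatment the cells were grown as floating spheres in neural precursor medium with B27, N2, bFGF and EGF. OTX2low cells received Silencer Select siRNA against OTX2 at 30 nM and OTX2high cells a non-silencing scramble siRNA. Both states are thus siRNA-treated cells of 1 cell line, the loss of OTX2 is a knockdown and not a deletion, and each state has 1 H3K27me3 library. No difference below has a replicate check, and no value tests the conditions.

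The names of these libraries conflict. The sample titles and the silencing labels give each of the H3K27me3 lists the opposite condition to its file name and to the library and IgG control named in its header. The authors' differential table also names OTX2high as treatment and OTX2low as control. File and header names are used throughout, and every direction given here is reversed if the sample titles are right. The knockdown itself was not checked here, since no RNA or protein was measured in these samples. OTX2 had no H3K27me3 peak and no differential H3K27me3 region at either gene end, and an H3K4me3 peak there in both H3K4me3 lists.

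H3K27me3 is written by Polycomb repressive complex 2, in which EZH2 is the catalytic subunit and SUZ12 and EED are required partners, and it is removed by the demethylases KDM6A and KDM6B. It lies in broad domains over silent genes, in particular over the CpG-rich starts of developmental transcription factors that other lineages use. Where it coincides with H3K4me3, the mark of active and poised starts, the promoter is called bivalent. OTX2 is a homeodomain transcription factor of forebrain, retina and cerebellar progenitors that is highly expressed in Group 3 medulloblastoma.

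The libraries differed in depth and fragment size. OTX2high held 33885628 filtered tags, with a fragment length of 78 bp estimated by the peak caller, and OTX2low held 40271458 tags with an estimate of 169 bp. The IgG libraries that the headers pair with them held 85840108 and 55079542 tags. The part of these gaps in the peak counts and widths below was not tested. The titles and silencing labels of the 2 IgG samples also name opposite conditions. They were assigned to no state here, and enrichments over IgG use the authors' pairing.

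The promoters of 6 genes show the kinds of sequence over which these differences lie. They are the 250 bases before the start site in RefSeq on GRCh38.p14, written 5′ to 3′ on the gene's strand with every CG dinucleotide in capitals. NEUROG2 (chr4:112516181-112516430, minus strand), LHX4 (chr1:180230014-180230263, plus strand) and PAX3 (chr2:222298999-222299248, minus strand) encode developmental transcription factors and lay in enriched regions higher in OTX2low. TCHH (chr1:152115445-152115694, minus strand), which encodes trichohyalin of the hair follicle, is a CpG-poor promoter with peaks of both lists, also in an enriched region higher in OTX2low (-0.23 on the log2 scale). PRAMEF11 (chr1:12831411-12831660, minus strand) belongs to a tandem gene family and lay in a region higher in OTX2high. GAPDH (chr12:6535014-6535263, plus strand) is a glycolytic housekeeping gene with no H3K27me3 peak in either list.
NEUROG2: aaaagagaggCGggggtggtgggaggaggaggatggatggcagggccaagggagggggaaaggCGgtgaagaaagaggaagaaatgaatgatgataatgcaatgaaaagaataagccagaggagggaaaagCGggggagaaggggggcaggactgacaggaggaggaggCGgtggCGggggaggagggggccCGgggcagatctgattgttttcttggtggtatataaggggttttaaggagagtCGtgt
LHX4: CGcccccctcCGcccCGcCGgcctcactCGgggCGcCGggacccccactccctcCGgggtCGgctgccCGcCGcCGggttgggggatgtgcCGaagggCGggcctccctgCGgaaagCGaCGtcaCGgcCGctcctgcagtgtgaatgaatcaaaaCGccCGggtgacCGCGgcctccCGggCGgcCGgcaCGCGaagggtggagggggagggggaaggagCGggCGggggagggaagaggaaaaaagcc
PAX3: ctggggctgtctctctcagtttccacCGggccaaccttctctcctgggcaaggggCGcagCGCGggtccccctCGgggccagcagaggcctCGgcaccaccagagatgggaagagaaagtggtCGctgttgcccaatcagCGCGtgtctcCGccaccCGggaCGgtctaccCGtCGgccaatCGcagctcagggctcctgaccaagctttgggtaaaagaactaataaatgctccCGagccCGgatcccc
TCHH: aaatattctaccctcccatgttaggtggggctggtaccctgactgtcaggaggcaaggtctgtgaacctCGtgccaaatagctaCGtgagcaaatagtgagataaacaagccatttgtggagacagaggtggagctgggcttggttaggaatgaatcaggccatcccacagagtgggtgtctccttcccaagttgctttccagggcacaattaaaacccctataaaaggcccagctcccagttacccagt
PRAMEF11: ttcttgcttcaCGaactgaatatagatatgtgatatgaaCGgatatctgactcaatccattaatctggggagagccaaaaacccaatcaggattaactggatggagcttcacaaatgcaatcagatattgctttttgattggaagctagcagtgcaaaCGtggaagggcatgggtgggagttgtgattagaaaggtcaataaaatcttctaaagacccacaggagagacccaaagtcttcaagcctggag
GAPDH: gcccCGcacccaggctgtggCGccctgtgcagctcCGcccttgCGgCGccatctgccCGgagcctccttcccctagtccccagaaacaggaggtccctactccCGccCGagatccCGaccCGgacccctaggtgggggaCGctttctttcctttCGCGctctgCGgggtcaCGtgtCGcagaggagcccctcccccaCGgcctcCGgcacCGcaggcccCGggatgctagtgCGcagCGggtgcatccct

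These stretches hold 7 CG dinucleotides in NEUROG2, 30 in LHX4, 17 in PAX3, 2 in TCHH, 3 in PRAMEF11 and 22 in GAPDH. Within 2000 bp of the start site, NEUROG2 had 5 peaks in the OTX2high list and 4 in the OTX2low list. LHX4 had 4 and 2 there, PAX3 had 1 and 5, TCHH had 3 and 3, and PRAMEF11 had 2 and 2. The printed bases themselves were touched by 1 peak of the OTX2low list at NEUROG2, at PAX3 and at TCHH, and by no peak of the OTX2high list at any of the 6.

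CpG content split the H3K27me3 promoters by H3K4me3. The measure is the CpG observed over expected ratio, which is the number of CG dinucleotides over that expected from the C and G content of the 300 bases around the start. Over 22132 promoters of 15812 coding genes its median was 0.74, with quartiles of 0.35 and 0.90. The 2150 promoters with peaks of both H3K27me3 lists within 2000 bp had a median of 0.58 and quartiles of 0.26 and 0.83, and the 18560 with no peak had 0.76. Of those with peaks of both lists, 1081 also had H3K4me3 peaks in both H3K4me3 lists, and their median was 0.81. Another 1002 had no H3K4me3 peak, and theirs was 0.27. A ratio of 0.6 or more was found in 81.1% of the former (95% exact binomial interval 78.7 to 83.4%) and in 12.7% of the latter (10.7 to 14.9%). For comparison it was found in 62.2% of all promoters (61.6 to 62.8%). Promoters of 1 gene and of neighbouring genes can lie in 1 domain, so these intervals are too narrow as well as limited to counting error. Promoters with no H3K27me3 peak were not split by H3K4me3. Whether the contrast is particular to H3K27me3 promoters was therefore not tested.

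**Figure D1:**
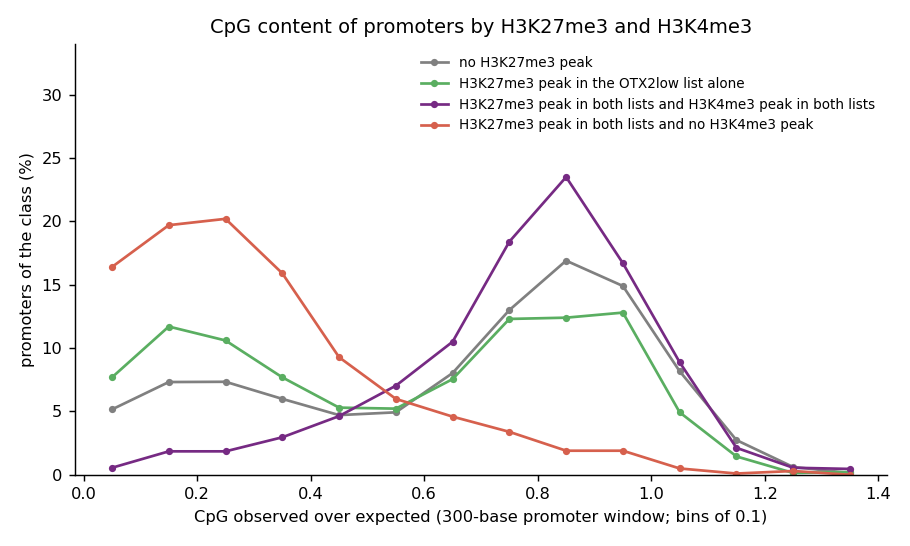
CpG observed over expected ratio (horizontal axis, bins of 0.1) of promoter classes, as percent of the promoters of each class (vertical axis). Promoters with H3K27me3 and H3K4me3 in both states peak on the CpG-rich side around their median of 0.81, those with H3K27me3 and no H3K4me3 peak on the CpG-poor side around 0.27.

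Promoters marked in the OTX2low list alone were close to the shared ones in CpG content. These 1378 promoters had a median ratio of 0.62, against 0.58 for the shared ones, and 51.9% (49.2 to 54.6%) reached 0.6, against 48.5% (46.4 to 50.6%). The 787 promoters at an enriched region higher in OTX2low had a median of 0.64. The letters TAATCC, the core that OTX2 and related homeodomain proteins bind, were searched on both strands of the same 300 bases. They were found in 5.46% of all promoters, in 5.16% of those with peaks of both lists (4.27 to 6.18%), in 4.86% of those of the OTX2low list alone (3.79 to 6.13%) and in 4.57% of those at an enriched region higher in OTX2low (3.22 to 6.28%). A match is a description of these letters and not evidence of binding.

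Peaks of the OTX2low list were more numerous and wider. That list held 158878 peaks over 97.0 Mb with a median width of 332 bp, and the OTX2high list 102810 peaks over 20.2 Mb with a median width of 139 bp. The authors called both as narrow peaks, so peaks of a list closer than 3000 bp were joined into domains. OTX2high had 1772 domains of at least 10 kb over 44.8 Mb, and OTX2low had 3785 over 139 Mb. An OTX2low domain overlapped 98.6% of the OTX2high domains, while an OTX2high domain overlapped 28.4% of the OTX2low domains. At least 1 peak of the OTX2high list still lay in 94.5% of the OTX2low domains (93.7 to 95.2%). These are 3577 of all 3785 domains, and they include the 1075 that an OTX2high domain overlaps. Most places that are domains only in OTX2low thus still held at least 1 peak of the OTX2high list. The share to be expected from the number of OTX2high peaks alone was not computed.

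Joined across the lists, 1069 domains were shared and had a median width of 52.7 kb, 2710 came from the OTX2low list alone (17.5 kb) and 25 from the OTX2high list alone (16.0 kb). The authors' deposited table of differential regions was set over these domains. It had only regions higher in OTX2low in 652 of the shared domains, only regions higher in OTX2high in 30, both in 7, and no region in 380. Of the 2710 domains of the OTX2low list alone, 571 held only regions higher in OTX2low, 23 only regions higher in OTX2high, 1 both, and 2115 (78.0%) none. Most domains listed in OTX2low alone were therefore not called different by the authors' own comparison of reads.

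The widest shared domains covered homeobox, coagulation and ion channel genes, among others. The widest was 658 kb (chr17:48132782-48790359) over the whole HOXB cluster, from HOXB1 to HOXB13, which encodes factors of hindbrain and trunk patterning, with PRAC1, PRAC2, SKAP1 and TTLL6. Peaks covered 35.6% of it in OTX2high (662 peaks) and 83.4% in OTX2low (378 peaks). Its 20 differential regions had both directions, and those at HOXB gene ends were all higher in OTX2low. The second, of 587 kb (chr1:2995694-3582548), held PRDM16, a histone methyltransferase family member of brown fat and blood stem cells, with ACTRT2, ARHGEF16 and MEGF6. Its 6 regions were all higher in OTX2low. The third, of 572 kb (chr13:112593110-113165391), held the coagulation genes F7, F10 and PROZ with MCF2L, ATP11A, TUBGCP3 and PCID2, and its 8 regions were higher in OTX2low.

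A domain of 409 kb on the same chromosome as HOXB (chr17:79230490-79639482) touched no coding gene end. Another of 385 kb (chr20:62408782-62793748) held GATA5, a heart and gut factor, and NTSR1, the neurotensin receptor, with CABLES2, RBBP8NL and SLCO4A1. Peaks covered 45.9% of it in OTX2high and 94.6% in OTX2low. A domain of 359 kb (chr17:37890497-38249420) held 6 copies of TBC1D3, a primate gene family of near-identical copies, and had no differential region. The remaining 2 were 353 kb (chr11:117825194-118177734) with FXYD2, FXYD6, the sodium channel subunits SCN2B and SCN4B, TMPRSS4, TMPRSS13, SMIM35 and IL10RA, and 351 kb (chr10:69640046-69990849) at COL13A1, a transmembrane collagen. Both had 8 regions, all higher in OTX2low.

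The widest domains of the OTX2low list alone that touched a gene end lay at INSYN2B (191 kb, chr5:169890509-170081100), at FIGLA, an oocyte factor, with CD207, CLEC4F and ADD2 (126 kb, chr2:70739427-70865057), and at the fibrinogen genes FGA and FGG (116 kb, chr4:154584157-154700192). Each of the 3 still held peaks of the OTX2high list, 45, 34 and 33 of them, which covered 3.45%, 4.38% and 4.05% of the length.

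At the level of genes, OTX2low again had the longer list. A gene was counted when a peak touched a window of 2000 bp around either gene end, since strand was not given for every gene. Of 19974 coding genes, 2697 (13.5%) had a peak in both lists, 1545 in OTX2low alone, 58 in OTX2high alone, and 15674 in neither. Genes marked in both lists carried a median of 691 bp of peaks in OTX2high and 3501 bp in OTX2low, and the genes of OTX2low alone a median of 476 bp. Of these 1545 genes, 738 (47.8%) rested on 1 peak, and of the 58 genes of OTX2high alone 53 (91.4%) did.

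Among genes marked in 1 list alone, those with most peak length differed in kind between the lists. In OTX2low alone, HNF4A, the liver and gut nuclear receptor, had 9 peaks over 6334 bp, FOXC2, a mesenchymal and lymphatic forkhead factor, had 9 over 4592 bp, the monocarboxylate transporter gene SLC16A13 had 8 over 4579 bp, and PPIAP59, a cyclophilin-like gene, had 3 over 4135 bp. By the authors' deposited table, HNF4A lay at a region with 555.67 normalized reads in OTX2high against 745.17 in OTX2low (log2 ratio of OTX2high over OTX2low -0.42). FOXC2 lay at one with 835.79 against 1172.86, so reads were present there in OTX2high without a called peak at the gene ends. In OTX2high alone the longest were LOC107986800 with 520 bp and the TAF11-like genes TAF11L7 with 424 bp, TAF11L3 with 386 bp and TAF11L8 with 271 bp. The latter 3 are near-identical copies on chromosome 5, between which reads cannot be assigned.

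The authors' deposited table held 5401 differential regions, 2298 higher in OTX2low and 3103 higher in OTX2high, called by a G-test of 1 library against the other. Their direction followed the enrichment of ChIP over IgG. Enrichment is the authors' ratio of ChIP to IgG reads, taken in the library with more. OTX2low was the higher library in 1629 of the 1647 regions with an enrichment of 4 or more, and OTX2high in 18. OTX2high was the higher library in 2845 of the 2976 regions with an enrichment below 2, and OTX2low in 131. In between, OTX2low was higher in 538 regions and OTX2high in 240. A region can pass 4 through the library with more alone, as at DLL1 (3.24 in OTX2high and 5.0 in OTX2low). With a minimum of 4 in the library with less, chosen after seeing the data, OTX2low was higher in 1102 of 1111 regions and OTX2high in 9. A count of regions over the whole table (57.5% higher in OTX2high) therefore describes mostly regions with little ChIP signal over IgG, and restricting it to regions with peaks of both lists leaves 17.3%.

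**Figure D2:**
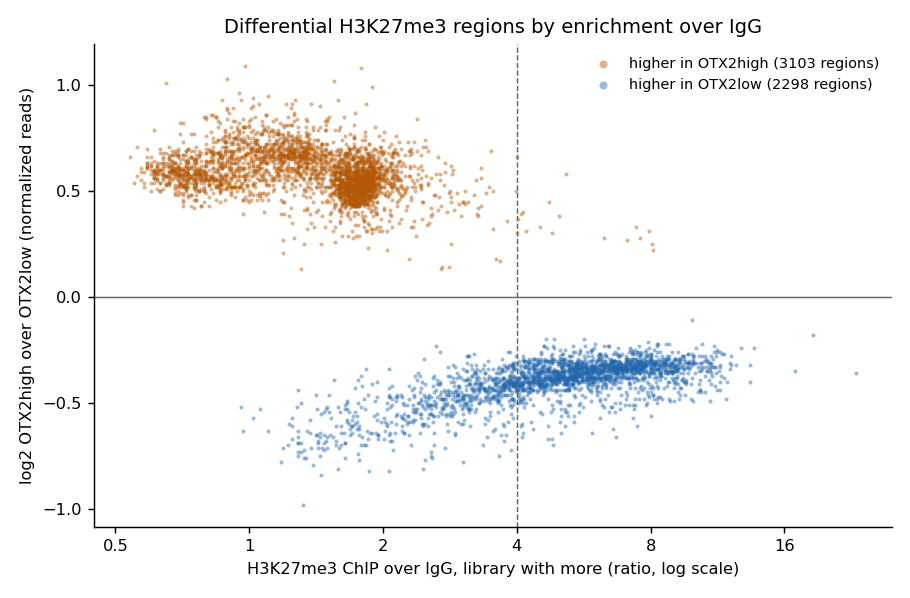
Each point is 1 of the 5401 regions of the authors' deposited table. The horizontal axis is ChIP over IgG in the library with more (log scale, dashed line at 4) and the vertical axis the log2 ratio of normalized reads, OTX2high over OTX2low, with 1629 of 1647 points right of the line below 0.

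Ratios of the regions enriched at least 4-fold lay in a narrow range. The log2 ratio of normalized reads is given as OTX2high over OTX2low, so a negative value is higher in OTX2low. Over these 1647 regions its median in the authors' deposited table was -0.35 with an SD across regions of 0.10, and the median density was 484 normalized reads per 10 kb for OTX2high against 616 for OTX2low. The median was -0.33 in the regions enriched at least 8-fold, and -0.40 in the 412 regions with fewest reads against -0.33 in the 412 with most. Exact conditional 95% intervals, from the reads behind each value and covering counting error only, left out -0.35 for 76 of the 1647 regions (4.61%). These were 58 of the 1629 higher in OTX2low and all 18 higher in OTX2high. This is a description and no test of a common ratio, since -0.35 is the median of the same regions. The regions entered the table because their difference was called, so ratios near 0 are missing from it, most of all at low depth. Scaled by filtered tags in place of the authors' constants, every log2 ratio moves by -0.14 and the median to -0.49.

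Among the 58 that were higher in OTX2low, 29 regions had a larger difference than -0.35 and 29 a smaller one. The larger ones lay at neural and patterning genes in several cases. Others lay at genes such as ACSF3, ANKRD62 and COL6A1, and some touched no coding gene end. At DLL1, a Notch ligand of neural progenitors, the authors' deposited table gives 1005.01 normalized reads for OTX2high against 1515.71 for OTX2low, which is -0.59 on the log2 scale (95% counting interval -0.71 to -0.47). At LHX4, a LIM homeobox factor of motor neurons and pituitary, it gives 1365.17 and 1984.51, a ratio of -0.54 (-0.64 to -0.44). At NEUROG2, a proneural bHLH factor, it gives 1041.6 and 1494.72, a ratio of -0.52 (-0.64 to -0.40). In each of these the OTX2low library is the higher one and the peaks of both lists are present.

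The same group held SP8 (-0.54), a zinc finger factor of forebrain and limb, RFX4 (-0.51), a factor of neural tube and cilia, POU3F3 (-0.50), a neural POU factor, SHH (-0.49), the Hedgehog ligand, MNX1 (-0.49), a motor neuron homeobox factor, FOXC2 and FOXL1 (-0.49, 1 region) and GATA6 (-0.45), an endoderm and heart factor, all log2 ratios of the authors' deposited table. It also held long regions with many reads, where the interval is narrow: a region over ADGRA1, KNDC1, UTF1 and VENTX with 17125.18 and 22678.85 normalized reads (-0.41, -0.43 to -0.38) in the authors' deposited table. No gene theme was tested for this group, and patterning genes lay among the smaller differences too. Of the 29 regions, 12 lay on chromosomes 7, 16 and X and 0 on chromosome 17.

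Regions with a smaller difference included several of the most enriched gene regions and much of the HOXB cluster. The regions at LHX1 (-0.23) and GDF6 (-0.20) in the authors' deposited table were also among them. At ZFP37, a zinc finger gene, the region beside the gene had by the authors' deposited table an enrichment of 18.06 in OTX2high against 18.54 in OTX2low, with 1871.67 and 2123.57 normalized reads, a log2 ratio of -0.18 (-0.27 to -0.09). At LHX5, a LIM homeobox factor of forebrain and cerebellum, the reads were 1529.81 and 1805.21 in the authors' deposited table, a ratio of -0.24 (-0.34 to -0.14). At GABRD, a GABA receptor subunit gene, they were 1609.85 and 1900.55 in that deposited table, again -0.24 (-0.34 to -0.14). The region over HOXB6 to HOXB9 had 2103.77 and 2471.67 normalized reads in the authors' deposited table, a ratio of -0.23 (-0.32 to -0.15). The smallest, at -0.11 (-0.15 to -0.08), lay at chr1:161441001-161479000 and touched no coding gene end. Of the 29 regions with a smaller difference, 16 lay on chromosome 17, which holds 112 of the 1629.

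**Figure D3:**
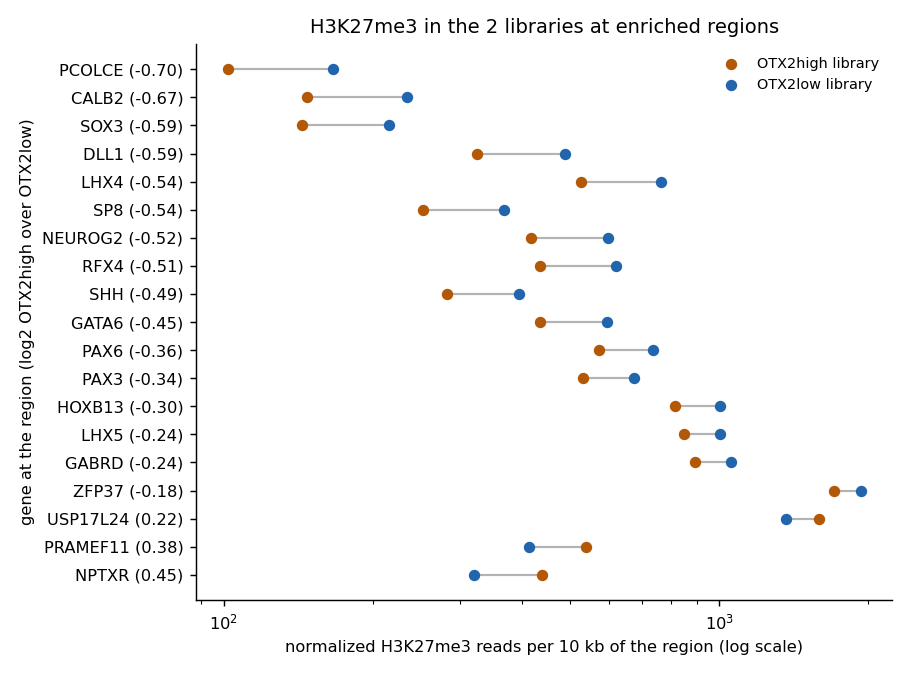
Normalized H3K27me3 reads per 10 kb (log scale) in the OTX2high and OTX2low libraries at enriched regions of named genes, from the authors' deposited table, with the log2 ratio of each in parentheses. OTX2low is the higher library from PCOLCE (-0.70) to ZFP37 (-0.18), and OTX2high at USP17L24 (0.22), PRAMEF11 (0.38) and NPTXR (0.45).

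Among regions enriched at least 4-fold with a peak, the 10 genes with the largest ratios toward OTX2low were DLL1 with its neighbour FAM120B, given above, and 8 others on regions with fewer reads. PCOLCE, FBXO24 and MOSPD3 share 1 region with 122.34 against 199.41 normalized reads, OTX2high first (-0.70, -1.05 to -0.37), in the authors' deposited table. CALB2, the calretinin gene of interneurons, had 250.39 and 397.95 there (-0.67, -0.91 to -0.43) in the authors' deposited table. ACSF3 (-0.66), DHRS7C (-0.64), PAGE4 (-0.62) and SOX3 (-0.59), a neural progenitor factor with 244.68 and 367.34 normalized reads, followed in the authors' deposited table. Of the regions at these genes, the counting intervals of PCOLCE, CALB2 and ACSF3 left out the median of -0.35, and those of DHRS7C (-0.95 to -0.34), PAGE4 (-0.95 to -0.30) and SOX3 (-0.83 to -0.35) did not.

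Enriched regions higher in OTX2high lay mostly in repeated gene families. Of the 18, 15 touched a gene of the PRAMEF, NBPF, GOLGA6L, USP17L or FAM90A families or LPA, whose kringle domain is itself repeated. Of the 1629 higher in OTX2low, 1 touched such a gene. The families were listed after these regions were seen, so the contrast with the 1629 follows from that choice and tests nothing. Other clusters of similar genes lay in enriched regions higher in OTX2low. Examples are KRTAP5-1 to KRTAP5-4 (-0.40, 1 region), HBA1 and HBA2 (-0.29, 1 region) and GAGE1 (-0.52) in the authors' deposited table. Reads cannot be assigned between near-identical copies, and the values of single members are uncertain. The USP17L cluster of deubiquitinase genes on chromosome 4 had 2 regions, 11168.3 against 9382.03 normalized reads (log2 ratio 0.25, 0.21 to 0.29) and 9047.37 against 7773.61 (0.22, 0.18 to 0.26), OTX2high first, in the authors' deposited table. FAM90A genes on chromosome 8 had 5 regions between 0.27 and 0.33. PRAMEF11 had 646.0 and 496.78 normalized reads in the authors' deposited table, a ratio of 0.38 (0.21 to 0.55). The other members were PRAMEF5 (0.30), NBPF10 (0.33 and 0.31), NBPF14 (0.37), GOLGA6L6 (0.39), GOLGA6L22 (0.30) and LPA (0.40).

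Outside these families, 3 enriched regions were higher in OTX2high. NPTXR, the neuronal pentraxin receptor gene, had 11 peaks in each list over its region. There the authors' deposited table gives 658.57 normalized reads for OTX2high against 481.04 for OTX2low, which is 0.45 on the log2 scale (0.28 to 0.62). Regions in CDH13 (0.66, 0.34 to 0.98), a cadherin gene, and at PDZD4 (0.58, 0.28 to 0.88) held no peak of either list.

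Differential regions called in the authors' deposited table touched the ends of 1294 genes with only regions higher in OTX2low (6.48% of the 19974 coding genes). They touched 328 genes with only regions higher in OTX2high (1.64%). The 19974 include genes beyond the last region of a chromosome. Limited to regions enriched at least 4-fold that overlap a peak, there were 1027 genes higher in OTX2low (5.14%) and 42 higher in OTX2high (0.210%), on 737 regions. Neighbouring genes share regions, so genes are not independent here. The gene lists below were chosen with earlier results of these data known, and their counts are descriptions set beside those shares. Most enriched regions at all genes were higher in OTX2low, so that direction within a list is not particular to the list.

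PAX genes encode paired-box factors of early patterning, and PAX3 is the factor named with OTX2 in the title of the study. Of 9, 6 had peaks in both lists and 6 had a called region, all higher in OTX2low, with a median log2 ratio of -0.35. By the authors' deposited table, PAX3 had 1064.46 normalized reads in OTX2high against 1344.29 in OTX2low, a ratio of -0.34 (-0.46 to -0.22), and no H3K4me3 peak in either H3K4me3 list. PAX6, a factor of cerebellar granule precursors and eye, had 1313.72 and 1690.64 in the authors' deposited table, a ratio of -0.36 (-0.47 to -0.26), and H3K4me3 peaks in both lists. PAX5 had -0.41, PAX9 -0.38 and PAX7 -0.34 in the authors' deposited table. All 5 intervals held the median of all enriched regions, -0.35.

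HOX genes were marked in both states. OTX2high peaks touched 32 of 39 HOX genes and OTX2low peaks 33, and 22 had a called region, all higher in OTX2low, on 10 regions with a median over genes of -0.28. HOXA2 and HOXA3, which share a region, had -0.40 (-0.59 to -0.21), HOXD13 had -0.36 and HOXD12 -0.33 in the authors' deposited table. With the ratio of the libraries' enrichments over IgG in place of reads, the HOX median was -0.40.

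Other homeobox, GATA, TBX, FOX and SOX genes followed. Of 66 LIM, IRX, NKX, DLX and other homeobox genes, 37 had an OTX2high peak and 44 an OTX2low peak, 30 had regions higher in OTX2low and 1, DLX3 (0.57, ChIP over IgG of 2.15 and 1.38 in the authors' deposited table), a region higher in OTX2high. Besides LHX4 and MNX1, the largest at enriched regions of the authors' deposited table were IRX3 (-0.52, -0.70 to -0.35) and DLX6 (-0.51, -0.73 to -0.29). In a list of 50 GATA, TBX, FOX and SOX genes, 24 and 33 had a peak, and 21 had a region, higher in OTX2low in each, with a median of -0.37. The list does not hold every member of these families: TBX19, outside it, had a region higher in OTX2high (0.78), with ChIP over IgG of 1.12 and 0.68 in the authors' deposited table. All 6 GATA genes had a peak in OTX2low and 5 in OTX2high. NKX genes had 10 of 14 and 11 of 14, and 9 had an enriched region higher in OTX2low.

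The neural factors and signaling genes of the lists used here had called regions higher in OTX2low and none higher in OTX2high. That is also the direction of most enriched regions at all genes (1027 genes against 42). Of 50 bHLH, POU, NR2F and ZIC factors, 25 had an OTX2high peak and 29 an OTX2low peak, and 19 had a region, all higher in OTX2low. At enriched regions of the authors' deposited table, their largest after NEUROG2 and POU3F3 were ASCL2 (-0.45) and OLIG1 (-0.39). Of 66 Wnt, Hedgehog, BMP and FGF genes, 28 and 41 had a peak and 21 (31.8%) a region, all higher in OTX2low. SHH had 930.69 and 1304.06 normalized reads in the authors' deposited table (-0.49, -0.61 to -0.36), FGF9 751.18 and 1047.79 (-0.48, -0.62 to -0.34), SFRP5 had a ratio of -0.41 and WNT3A of -0.39.

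Progenitor genes had a median log2 ratio of -0.46 over 5 called genes of 26 and of -0.36 over the 3 at enriched regions, with SOX2 at -0.36 and DLL1 at -0.59 in the authors' deposited table. Of 36 neuronal differentiation genes, 12 and 16 had a peak, and 9 had a region, all higher in OTX2low. They included GRIN1 (-0.44), an NMDA receptor subunit, PVALB (-0.35) and RBFOX3 (-0.33) in the authors' deposited table. Of 54 axon guidance genes, 13 and 22 had a peak, while 4 had a region higher in OTX2low and 2, EPHB2 (0.85) and SEMA4A (0.58), a region with OTX2high as the higher library. Both of the latter had little ChIP signal in the authors' deposited table, 1.63 and 0.93 over IgG at EPHB2 and 1.43 and 0.83 at SEMA4A. That list's share of 7.41% higher in OTX2low is close to the 6.48% of all genes.

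Photoreceptor genes, which Group 3 tumors express, were marked at the rate of all genes. Of 28, 4 (14.3%, 4.03 to 32.7%) had a peak in OTX2high and 6 in OTX2low, against 13.8% and 21.2% of all genes. RAX, a retinal homeobox factor, had -0.37 and PDE6B, a rod phosphodiesterase subunit, -0.39 in the authors' deposited table. Of 17 Group 3 and cerebellar identity genes, 6 and 7 had a peak. EN2, a midbrain and cerebellar homeobox factor, had -0.41, LMX1A -0.31 and ZIC2 -0.30 in the authors' deposited table.

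Polycomb genes had H3K27me3 peaks at shares near those of all genes. EZH2, SUZ12, EED, KDM6A and KDM6B had no H3K27me3 peak and no region in either list, and an H3K4me3 peak in both. Of 36 Polycomb genes and demethylases, 4 (11.1%, 3.11 to 26.1%) had a peak in OTX2high and 6 (16.7%, 6.37 to 32.8%) in OTX2low. The shares of all genes were 13.8% and 21.2%. BMI1, a subunit of Polycomb repressive complex 1, had a region under 4-fold over IgG with 322.43 normalized reads for OTX2high against 443.43 for OTX2low (-0.46) in the authors' deposited table. None of 30 housekeeping genes had a peak in either list (exact upper limit 11.6%), nor had any of 80 cytosolic ribosomal protein genes (4.51%). Still, 1 of the ribosomal protein genes had an enriched called region higher in OTX2low (-0.34) and 1 a called region higher in OTX2high (0.58). Among 34 cell cycle and MYC genes, 3 (8.82%) had a peak in OTX2high and 4 (11.8%) in OTX2low. Regions higher in OTX2low were called at 2 (5.88%), close to the 6.48% of all genes. They were CCND1 (-0.35) and the inhibitor CDKN2A (-0.33) in the authors' deposited table.

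**Figure D4:**
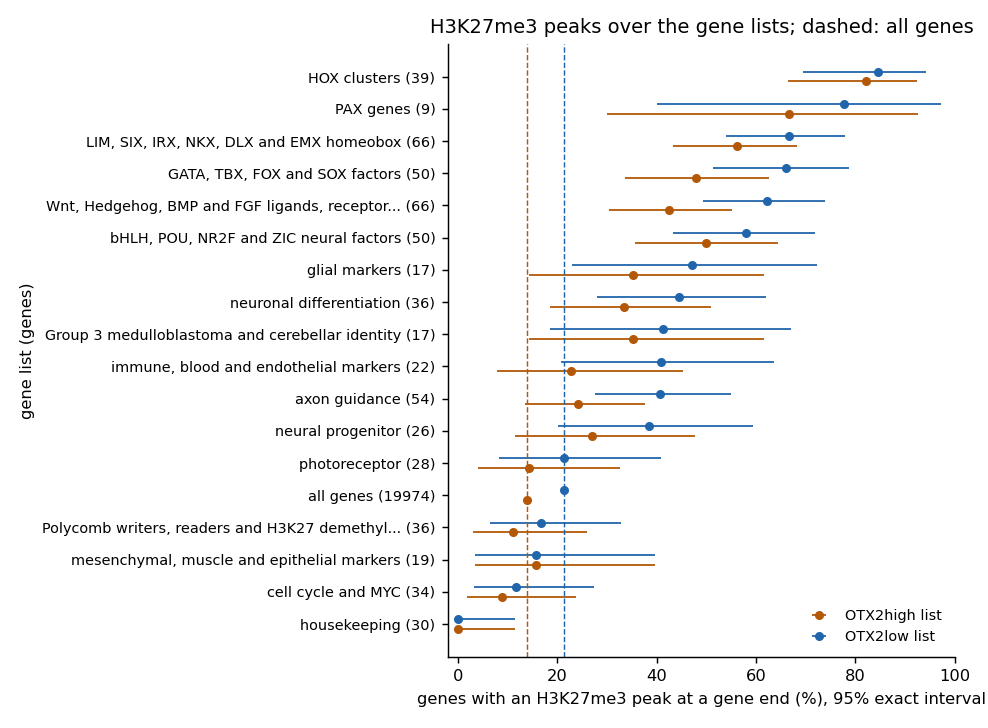
Percent of the genes of each list (number of genes in parentheses) with an H3K27me3 peak at a gene end in the OTX2high and OTX2low lists, with exact 95% intervals for counting error. Dashed lines mark all genes (13.8% and 21.2%), and HOX clusters stand at 82.1% and 84.6% and housekeeping genes at 0.

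Among markers of other cell types, the share with a peak differed by gene list, and the intervals are wide. The shares of all genes were 13.8% in OTX2high and 21.2% in OTX2low. Peaks touched 6 and 8 of 17 glial genes, 5 and 9 of 22 immune, blood and endothelial genes, and 3 and 3 of 19 mesenchymal, muscle and epithelial genes. Examples in the authors' deposited table were MAG (-0.40), a myelin gene, CD3E (-0.38), a T cell receptor subunit, and the alpha globins HBA1 and HBA2 (-0.29, 1 region). MYOG, a muscle factor, had a region higher in OTX2high (0.79) with little ChIP signal, under 2-fold over IgG, in that deposited table.

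Several tissue-specific gene clusters were marked at a higher share of their genes than the 13.8% and 21.2% of all genes. Peaks touched 31 of 45 defensin genes in OTX2high and 38 in OTX2low, 48 and 57 of 94 keratin-associated protein genes, 13 and 17 of 19 late cornified envelope genes, and 27 and 34 of 56 cytochrome P450 genes. Regions higher in OTX2low were called at 8 of the defensin genes (17.8%), 19 of the keratin-associated protein genes (20.2%) and 6 of the cytochrome P450 genes (10.7%), and at 0 late cornified envelope genes, against 6.48% of all genes. Olfactory receptor genes had a peak at 74 of 392 in OTX2high (18.9%, 15.1 to 23.1%) and at 150 in OTX2low (38.3%, 33.4 to 43.3%), while 16 had a region higher in OTX2low and 4 in OTX2high. Potassium channel genes had 36 and 48 of 95. Zinc finger ZNF genes had 14 and 40 of 509, and clustered protocadherins 0 and 1 of 53.

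H3K4me3 at the same gene ends differed by H3K27me3 class. It had peaks in both H3K4me3 lists at 50.1% of the 2697 genes with H3K27me3 in both lists, at 58.0% of the 1545 of OTX2low alone and at 72.6% of those with none. Over all genes, the authors' H3K4me3 table had regions higher in OTX2high alone at 7784 genes (39.0%) and higher in OTX2low alone at 785 (3.93%). At the 1027 genes with an enriched H3K27me3 region higher in OTX2low these numbers were 116 (11.3%) and 72 (7.01%). At the 42 genes with an enriched region higher in OTX2high, most of them in repeated families, they were 0 and 12 (28.6%). At the 2697 genes with H3K27me3 peaks in both lists they were 261 (9.68%) and 248 (9.20%). Genes with more H3K27me3 in OTX2low were thus called for lower H3K4me3 in OTX2low in 11.3% of cases, below the 39.0% of all genes. H3K4me3 peaks in both lists were also fewer among them, at 57.2% against 68.4% of all genes, and whether their called share differs at matched H3K4me3 signal was not tested.

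Position differed between the enriched regions higher in OTX2low and the weak regions (under 2-fold over IgG) higher in OTX2high. Of the 1629 enriched regions higher in OTX2low, 777 (47.7%) touched a coding gene end, 316 lay within gene bodies only and 536 (32.9%) touched no coding gene. Of the 2845 weak regions higher in OTX2high, 213 (7.49%) touched a gene end and 2003 (70.4%) no coding gene. Peaks of the OTX2high list lay in 30.0% of these weak regions, and of the OTX2low list in 13.4%. Many lay in 3 long segments, chosen after the counts were seen. Chromosome 8 from 70000001 to 130000000 held 572 (20.1%), with a median of 322 and 289 IgG reads per 10 kb in OTX2high and OTX2low, as implied by the authors' ratios. Chromosome 1 from 120000001 to 248916000 held 345 (12.1%; IgG 191 and 175), and chromosome 17 from 20000001 to 80922000 held 194 (6.82%; IgG 178 and 166). All weak regions higher in OTX2high had medians of 177 and 169, close to those of the chromosome 17 segment, and the enriched regions had 99.4 and 97.9. Chromosome 20, with IgG medians of 262 and 251 at its weak regions, held 46 of them. The part of copy number or IgG depth in the weak regions was not tested.

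**Figure D5:**
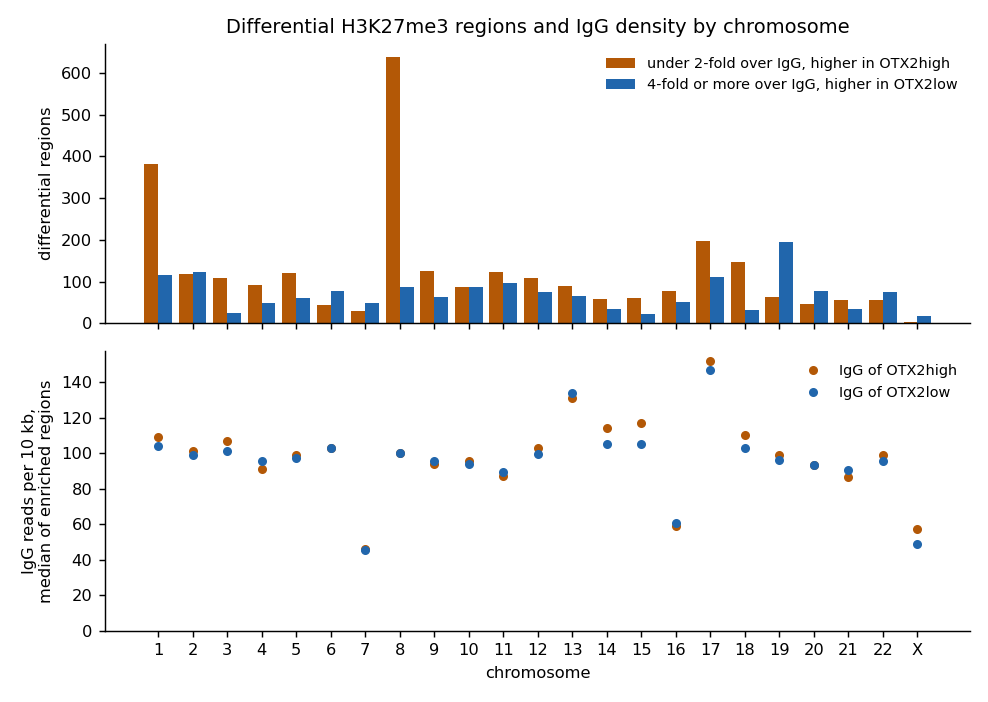
Upper panel: number of differential regions per chromosome, under 2-fold over IgG and higher in OTX2high, and 4-fold or more and higher in OTX2low. Lower panel: median IgG reads per 10 kb over enriched regions for each library. Chromosome 8 has 637 weak regions, and chromosomes 7, 16 and X have the lowest IgG density.

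Chromosomes 7, 16 and X, set apart after the values were seen, had a lower IgG density and a larger difference at enriched regions. On chromosomes 7, 16 and X the median IgG density of enriched regions in OTX2low was 45.7 to 60.5 reads per 10 kb, and the median log2 ratio lay between -0.50 and -0.41. On the other 20 chromosomes the density was 89.5 to 147 and the ratio between -0.38 and -0.30, with chromosome 17 at the highest density and at -0.30. Among these 20 the order was not strict: chromosome 11, at 89.5, had -0.36 and chromosome 18, at 103, had -0.38. Enriched regions with fewest reads also had a larger difference (-0.40 against -0.33 in those with most), and the part of read depth here was not tested. SHH, MNX1, SP8 and HOXA2 lie on chromosome 7, SOX3 on X, CALB2, IRX3 and FOXC2 on chromosome 16, and the HOXB genes on chromosome 17. How much of the differences of these genes from the median ratio goes with their chromosomes was not tested. DLL1, LHX4, NEUROG2, RFX4 and POU3F3 lie on other chromosomes.

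The authors' hotspot table listed 61 clusters of differential regions, 36 with regions higher in OTX2low, 18 with regions higher in OTX2high and 7 with both. At the authors' adjusted p under 0.05 there were 13, 1 and 3. The cluster with most regions (11, chr22:49353001-49738000) touched no coding gene end. The next were chr7:155355001-155823000 with 8 regions over EN2, CNPY1, RBM33 and SHH, and chr10:100575001-100867000 with 8 at PAX2, a kidney and midbrain factor. Clusters with 7 regions included chr19:3785001-3928000 over ATCAY, MATK and ZFR2, and chr21:45294001-45505000 at COL18A1 and SLC19A1. Another with 7 (chr13:27786001-28052000) held the ParaHox genes GSX1, PDX1 and CDX2 with FLT3 and URAD. GSX1 had -0.30 (-0.38 to -0.21), PDX1 -0.31 (-0.40 to -0.22) and CDX2 -0.26 (-0.40 to -0.13) in the authors' deposited table, all higher in OTX2low.

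The differential table ended before the last peaks on some chromosomes, so genes beyond its last region have no call there. Whether they were scanned, and the part of the hg19 chromosome table named in the authors' command, was not tested. On chromosome 20 it ended at 63015000 and the peaks at 64331424, with 40 coding genes beyond, 19 of them with a peak. On chromosome 17 the ends were 80922000 and 83245902, with 67 genes beyond and 15 with a peak. On chromosome 18 they were 78048000 and 79878044, with 14 genes and 4.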

How the data were processed

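The submitters' processing notes name Bowtie2 2.3.3.1, GRCh38 and MACS2 2.1.1.20160309. Each library was compared by MACS2 with 1 IgG library at q 0.05 according to the file headers, and the deposited lists give pileup signal, −log10 p and q values and fold enrichment. Per the file headers, diffReps 1.55.6 with a G-test scanned windows of 10000 bp in steps of 1000 bp at a p-value threshold of 0.0001, with a chromosome table of hg19 named in its command. The authors' table gives read signal scaled by library-specific constants, the ChIP to IgG ratio, a log2 ratio and p-values, and the authors' hotspot table the count of regions per cluster. The G-test compares 2 libraries and not the conditions.

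From these files Python 3.11.15, numpy 2.4.6, pandas 2.3.3 and scipy 1.17.1 computed overlaps (at least 1 bp), domains, gene-end counts, and exact Clopper-Pearson intervals, whose coverage was tested on simulated data. The reads behind a value came from its step per read, which gave whole numbers within 0.05 for 99.6% and 99.8% of values. PCR reads are not independent molecules, so intervals cover counting error only. Coding genes were those of RefSeq on chromosomes 1 to 22 and X. Gene ends were used because strand was not given for every gene, and promoters came from the RefSeq promoter table on GRCh38.p14.

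The comparison, the gene lists and the rule for named genes were chosen with earlier results of these data known. The rule took the 10 genes with the largest log2 ratio in each direction at enriched regions with a peak, up to 4 per list, genes of the 8 widest shared domains, OTX2, PAX3, PAX6 and core Polycomb genes, and the 4 genes with most peak length in 1 list alone in each direction. Regions whose interval leaves out the median ratio, hotspot genes, BMI1, list genes higher in OTX2high, the chromosome segments and the repeated families were picked after values were seen. Chromosome Y was left out of the gene counts. Alternatives to these settings are given at the end.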

Additional observations from a re-analysis of the deposited data

How the results depend on the processing

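No paired analysis was possible because each state has 1 H3K27me3 library, and for the same reason no library could be left out. With the condition names of the sample titles, the median log2 ratio of enriched regions is 0.35, and the genes with a region are 1294 higher in OTX2high and 328 higher in OTX2low. Scaling by filtered tags, added after seeing the data, moved that median to -0.49. Minimum enrichments of 2 and 8, a minimum of 4 in the library with less, and the ratio of enrichments gave -0.36, -0.33, -0.34 and -0.36. Peak counts depended on the threshold: with −log10 q of at least 5, 1362 genes had a peak in OTX2high and 1343 in both lists, and OTX2high had 366 domains of at least 10 kb. Requiring 200 bp of overlap left 1713 genes in both lists. Joining across 1000 bp gave 546 OTX2high domains, and a reciprocal overlap of 50% left 416 shared domains in either list. Of the differential regions, an adjusted p below 1e-06 kept 841 higher in OTX2high and 629 higher in OTX2low, an absolute log2 ratio of at least 0.5 kept 348 higher in OTX2low, and a peak of both lists kept 393 higher in OTX2high. A minimum enrichment of 4, added later for the regions, kept 18 regions and 43 genes higher in OTX2high. The same minimum in the library with less, also added later, kept 1102 regions with OTX2low as the higher library and 9 with OTX2high. Taking 102810 peaks of highest fold from each list, also added later, gave 2755 and 3740 genes. The other 38 settings of these counts and medians moved a count by under 1.5 times or the median by under 0.10. The causes of the changes were not tested. Among list medians, none changed sign, and those of HOX (-0.40), glial (-0.71) and immune, blood and endothelial genes (-0.12) moved by over 0.10 with the ratio of enrichments.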
